A study of Mus musculus with 10 samples.

Results

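The 6 genes described here encode enzymes that make serine and pass its carbon to folate: Shmt1, Shmt2, Mthfd1, Mthfd1l, Mthfd2 and Psph. They were chosen by gene symbol, with earlier results of these data known, from a table of 52097 genes, and all 6 were found. RNA was sequenced in bulk from haematopoietic stem cells of mouse bone marrow, with 5 libraries labelled Dhx16_CKO (genotype label KO, library columns CKO7, CKO8, CKO9, CKO12 and CKO13) and 5 labelled Dhx16_fl (genotype label WT, library columns WT2 to WT6). They are called CKO and fl libraries below. Dhx16 is a DEAH-box RNA helicase that acts in the spliceosome. About 5000 cells per sample had been sorted as lineage-negative, Sca-1+, c-Kit+, CD48- and CD150+ cells, and the Smart-Seq V4 kit, which amplifies messenger RNA from few cells, was used for the libraries. The deletion strategy, the driver of any Cre recombinase, and the strain, age and sex of the mice were not given in the sources used here. Nor do they say whether each library came from its own animal, so the p-values measure only the spread between these libraries.

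Folate carries single carbon units. Serine hydroxymethyltransferases take a carbon from serine, leaving glycine, with Shmt2 working in mitochondria and Shmt1 in the cytosol. In mitochondria Mthfd2 oxidises the folate-bound carbon and Mthfd1l releases it as formate. In the cytosol Mthfd1, a single protein with 3 activities, loads formate onto folate again for the synthesis of purines and thymidylate and for the methionine cycle. Psph removes the phosphate in the last step of serine synthesis, after Phgdh and Psat1. In mammalian cells the transcription factor ATF4 is known to activate several of these genes, and dividing cells are known for a high demand for their products.

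The promoters of the 6 genes were taken from RefSeq, from 250 bases before the annotated start to 50 bases after it, on GRCm38.p6, and all 6 matched an entry. The ATF4 composite motif TGATGNAA was found in none of the 6 windows and in 3.97% of all 32851 promoters of the table. The E-box CACGTG, also found in none, occurred in 7.15% of all promoters, and the E2F letters TTTCGCGC or TTTGGCGC, found in none, in 0.813%. Both strands were searched, and no match says only that these letters are not in the window. The CCAAT box occurred in 37.4% of all promoters. It occurred 3 times in the Mthfd2 window, 2 times in that of Psph and 1 time each in those of Mthfd1 and Shmt1, and was not found in those of Shmt2 and Mthfd1l. A match is a description of letters and not a known binding site. The 3 windows below are shown because Mthfd1 had the largest change of the 6 genes, Mthfd2 held the most CCAAT boxes, and Psph held 2 without a called change. They lie at chr12:76254982-76255281 on the plus strand for Mthfd1, at chr6:83317555-83317854 on the minus strand for Mthfd2 and at chr5:129787204-129787503 on the minus strand for Psph. The RefSeq starts of Mthfd2, Psph and Shmt1 lie inside the longer spans that GENCODE gives these genes. Capitals mark CCAAT or its reverse complement ATTGG.
Mthfd1: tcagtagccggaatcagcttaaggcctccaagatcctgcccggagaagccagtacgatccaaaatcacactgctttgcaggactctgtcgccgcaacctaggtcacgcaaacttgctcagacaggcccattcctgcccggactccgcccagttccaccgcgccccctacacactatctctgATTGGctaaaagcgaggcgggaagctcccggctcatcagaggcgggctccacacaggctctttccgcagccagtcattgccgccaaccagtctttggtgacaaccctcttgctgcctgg
Mthfd2: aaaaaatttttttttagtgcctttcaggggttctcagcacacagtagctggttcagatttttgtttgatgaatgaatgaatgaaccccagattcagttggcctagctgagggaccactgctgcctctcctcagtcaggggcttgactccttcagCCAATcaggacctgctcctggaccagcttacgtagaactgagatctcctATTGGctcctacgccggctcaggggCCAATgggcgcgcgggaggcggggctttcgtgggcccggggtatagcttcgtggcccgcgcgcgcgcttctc
Psph: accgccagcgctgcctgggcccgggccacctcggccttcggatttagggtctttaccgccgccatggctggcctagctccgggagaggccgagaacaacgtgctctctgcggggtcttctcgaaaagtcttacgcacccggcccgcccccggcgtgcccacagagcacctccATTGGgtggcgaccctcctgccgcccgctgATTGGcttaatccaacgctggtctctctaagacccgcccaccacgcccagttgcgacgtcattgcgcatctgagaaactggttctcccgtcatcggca
The box in the Mthfd1 window began 69 bases upstream of the annotated start. Those of Mthfd2 began 96, 47 and 22 bases upstream, and those of Psph 78 and 48 bases upstream.

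Dhx16 itself was lower in the CKO libraries but was not lost. It was at 10.9, 10.6, 8.80, 7.10 and 10.1 FPKM in CKO7, CKO8, CKO9, CKO12 and CKO13, against 22.6, 20.5, 14.6, 15.5 and 14.3 FPKM in WT2 to WT6. FPKM, fragments scaled for transcript length and for sequencing depth, is the unit in which the library columns were read. The groups did not overlap, and the change was -0.81 on the log2(FPKM + 1) scale (SE 0.16, limma, Benjamini-Hochberg adjusted p = 0.000638). All log2 changes below are on this scale, CKO minus fl, from limma with adjustment over the 6913 genes that had 10 FPKM or more in at least 5 libraries. Genes with an adjusted p under 0.05 were called.

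Stem cell markers were present in both groups. Procr was at 21.6 to 35.6 FPKM in CKO libraries and 33.3 to 53.8 FPKM in fl libraries, and Slamf1, which encodes the sort marker CD150, at 9.40 to 14.7 FPKM in CKO libraries and 16.4 to 26.5 FPKM in fl libraries. Ly6a, which encodes the sort marker Sca-1, was at 162 to 259 FPKM in CKO libraries and 126 to 317 FPKM in fl libraries. Kit, which encodes c-Kit, was at 78.3 to 158 FPKM in CKO libraries and 124 to 182 FPKM in fl libraries. Neither was called (log2 changes 0.11 and -0.36, limma, adjusted p = 0.692 and 0.144), whereas Procr and Slamf1 were called lower. Several marker lists moved with the genotype. Over all tested genes 21.1% were called higher and 31.6% lower. The summed level of 11 stem cell genes was 543 to 854 FPKM in CKO libraries and 924 to 1258 FPKM in fl libraries, with 7 of 9 tested genes called lower. That of 8 erythroid genes was 753 to 1177 FPKM in CKO libraries and 120 to 397 FPKM in fl libraries (8 of 8 called higher), and that of 10 cell cycle genes 1172 to 1472 FPKM in CKO libraries and 396 to 624 FPKM in fl libraries (9 of 9 tested called higher). That of 6 megakaryocyte genes was 705 to 1394 FPKM in CKO libraries and 1455 to 2213 FPKM in fl libraries (6 of 6 called lower), and that of 6 macrophage genes 10.6 to 27.5 FPKM in CKO libraries and 117 to 272 FPKM in fl libraries (3 of 3 tested called lower). Those 3 macrophage genes passed the filter through the fl libraries alone, as did 2 of the megakaryocyte and 1 of the stem cell genes, while 5 of the erythroid genes passed through the CKO libraries alone. Granulocyte genes summed to 8348 to 40842 FPKM in CKO libraries and 9623 to 74170 FPKM in fl libraries, with 0 of 6 called by limma and 1 of 6 lower at an unadjusted p under 0.05. Bone matrix genes summed to 4549 to 47778 FPKM in CKO libraries and 3180 to 65871 FPKM in fl libraries, with 0 of 6 called by limma or at an unadjusted p under 0.05. Lymphocyte genes summed to 1.80 to 5.32 FPKM in CKO libraries and 2.98 to 6.45 FPKM in fl libraries. No gene of these lists was at 0 in all libraries. In bulk RNA, fewer cells of a type and less RNA per cell cannot be told apart, and the part of these marker lists in the results below was not tested. CKO13 and WT6 were highest in bone matrix genes and CKO8 and WT3 in granulocyte genes, and the calls on the 6 enzymes are given with and without them.

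Of the 6 enzymes, 4 were higher in CKO libraries: Mthfd1, Mthfd2, Mthfd1l and Shmt2. With limma 0 were called lower, also at an unadjusted p under 0.05 (0 of 6), and none was lower in the authors' deposited table. Shmt1 and Psph were not called. Over all 6913 tested genes 52.7% were called, 21.1% higher and 31.6% lower. The median log2 change of the 6 enzymes was 0.78, beside -0.12 over all tested genes. The same 4 enzymes were called without CKO13 and WT6 and without CKO8 and WT3. Each of the 6 passed the filter on low values, but Mthfd1l and Mthfd2 did so through the CKO libraries, since fewer than 5 fl libraries reached 10 FPKM. With a filter of 1 FPKM, which both genes passed in every library, both were still called higher, beside 13.4% higher and 36.4% lower of 13448 tested genes.

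Mthfd1 (ENSMUSG00000021048, chr12:76255298-76319803, plus strand of mm10), the cytosolic enzyme, changed most. It was at 128, 141, 125, 89.5 and 119.5 FPKM in CKO7, CKO8, CKO9, CKO12 and CKO13, against 43.4, 39.2, 26.95, 31.3 and 35.4 FPKM in WT2 to WT6. The lowest CKO library was above the highest fl library by a wide margin. Its mean was 121 ± 19.1 FPKM in CKO libraries and 35.2 ± 6.44 FPKM in fl libraries (SD, n = 5 each), a ratio of 3.42. The log2 change was 1.75 (SE 0.15, limma, adjusted p = 1.7e-06) and ranked 57 among the rises of the 6913 tested genes.

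Mthfd2 (ENSMUSG00000005667, chr6:83305691-83325908, minus strand), the mitochondrial dehydrogenase and cyclohydrolase, was at 16.9, 22.8, 19.97, 14.1 and 25.98 FPKM in CKO7, CKO8, CKO9, CKO12 and CKO13. In WT2 to WT6 it was at 12.0, 11.9, 9.13, 5.44 and 10.3 FPKM. The groups did not overlap, though CKO12 came close to WT2 and WT3, and WT5 lay lowest. Means were 19.96 ± 4.69 and 9.73 ± 2.67 FPKM in CKO and fl libraries (SD, n = 5 each). The log2 change was 0.98 (SE 0.20, limma, adjusted p = 0.000981).

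Mthfd1l (ENSMUSG00000040675, chr10:3973118-4167081, plus strand), the mitochondrial formyl-folate synthetase, was at 20.3, 24.0, 24.1, 16.6 and 22.1 FPKM in CKO7, CKO8, CKO9, CKO12 and CKO13, against 13.5, 12.2, 8.32, 10.4 and 11.1 FPKM in WT2 to WT6. Every CKO library was above every fl library. Means were 21.4 ± 3.11 FPKM in CKO libraries and 11.1 ± 1.94 FPKM in fl libraries (SD, n = 5 each), with a log2 change of 0.89 (SE 0.15, limma, adjusted p = 0.00016).

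Shmt2 (ENSMUSG00000025403, chr10:127517123-127522444, minus strand), the mitochondrial hydroxymethyltransferase, was the most abundant of the 6 enzymes in fl libraries. It was at 104, 125, 126, 98.4 and 107 FPKM in CKO7, CKO8, CKO9, CKO12 and CKO13, against 85.8, 72.5, 67.9, 61.1 and 65.3 FPKM in WT2 to WT6. The groups did not overlap, with WT2 nearest to the CKO libraries. Means were 112 ± 12.7 and 70.5 ± 9.49 FPKM in CKO and fl libraries (SD, n = 5 each), and the log2 change was 0.67 (SE 0.12, limma, adjusted p = 0.000367). Among all tested genes, 12.9% were higher in every CKO library than in any fl library, as these 4 enzymes were.

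Shmt1 (ENSMUSG00000020534, chr11:60788104-60811718, minus strand), the cytosolic counterpart of Shmt2, overlapped between groups. It was at 16.9, 20.8, 19.4, 16.7 and 14.75 FPKM in CKO7, CKO8, CKO9, CKO12 and CKO13, against 22.4, 17.15, 19.8, 13.8 and 11.3 FPKM in WT2 to WT6. All CKO libraries lay within the range of the fl libraries. Means were 17.7 ± 2.39 and 16.9 ± 4.46 FPKM in CKO and fl libraries (SD, n = 5 each). The log2 change was 0.09 with a 95% interval of -0.26 to 0.45 (limma, adjusted p = 0.662).

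Psph (ENSMUSG00000029446, chr5:129765558-129787449, minus strand) was at 13.4, 19.9, 20.2, 16.5 and 18.9 FPKM in CKO7, CKO8, CKO9, CKO12 and CKO13, against 20.3, 17.7, 23.0, 13.8 and 13.2 FPKM in WT2 to WT6. Here too the CKO libraries lay within the range of the fl libraries. Means were 17.8 ± 2.84 and 17.6 ± 4.20 FPKM in CKO and fl libraries (SD, n = 5 each), and the log2 change was 0.03 with a 95% interval of -0.32 to 0.38 (limma, adjusted p = 0.891). The annotated span of Psph shares 452 bases with that of Cct6a, a chaperonin subunit gene on the opposite strand. Cct6a averaged 381 FPKM in CKO libraries and 183 FPKM in fl libraries. How many of the shared bases lie in exons was not measured. The strand setting of the counting was not stated, so reads from the shared bases cannot be assigned to one gene. The other genes that overlap the 6 enzymes averaged at most 2.54 FPKM in either group.

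**Figure D1:**
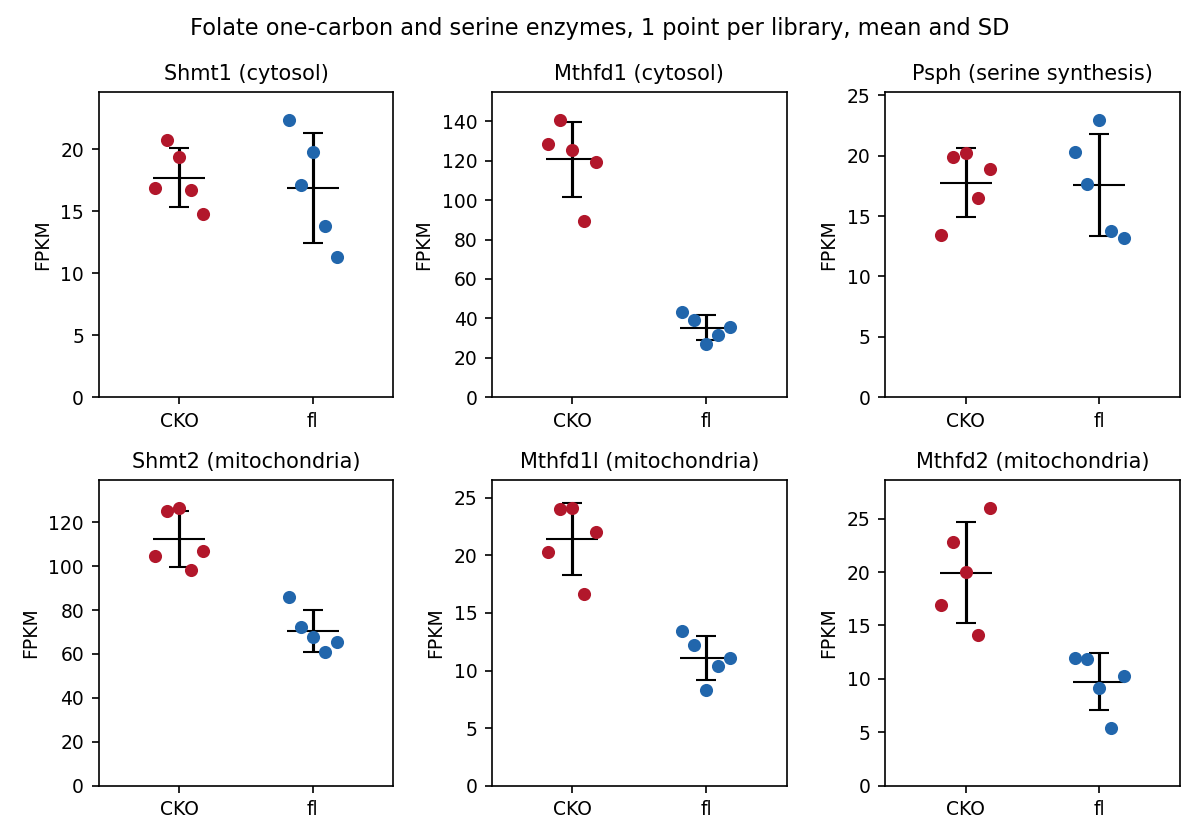
FPKM of the 6 enzymes in each library, with CKO libraries left of fl libraries in each panel, points for libraries and bars for the mean and SD of 5 libraries. For Mthfd1, Mthfd2, Mthfd1l and Shmt2 all CKO points lie above all fl points, and for Shmt1 and Psph the CKO points lie within the range of the fl points.

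The calls for Shmt1 and Psph depended on how libraries were scaled against each other, and those for the other 4 did not. FPKM were used as deposited. Scaling with median-of-ratios factors moved the median log2 change of all tested genes to 0.25, and 44.2% of them were then called higher and 11.8% lower. Under it Shmt1 changed by 0.46 (adjusted p = 0.0194) and Psph by 0.40 (adjusted p = 0.0266), so that all 6 enzymes were called higher. A scaling to the authors' fold changes multiplied every CKO library by 1.32. That factor was set by the median difference between their fold changes and those of limma, so it is not an independent check. Under it 6 of 6 were called higher, with 43.3% of all tested genes called higher and 11.8% lower. In the authors' deposited table, made with DESeq2, the log2 fold changes were 2.20 for Mthfd1, 1.50 for Mthfd2, 1.34 for Mthfd1l and 1.10 for Shmt2. The authors' deposited table gave Psph 0.40 (standard error 0.16, adjusted p = 0.0421) and Shmt1 0.38 (standard error 0.16, adjusted p = 0.0609). Of 23405 genes with an adjusted p in the authors' deposited table, 17.1% were higher and 11.5% lower. With equal totals, by contrast, Shmt1 was at -0.042 and Psph at -0.11, and neither was called. Across the scalings tried the order of the changes kept Mthfd1 first and the Shmt1 and Psph changes smallest.

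**Figure D2:**
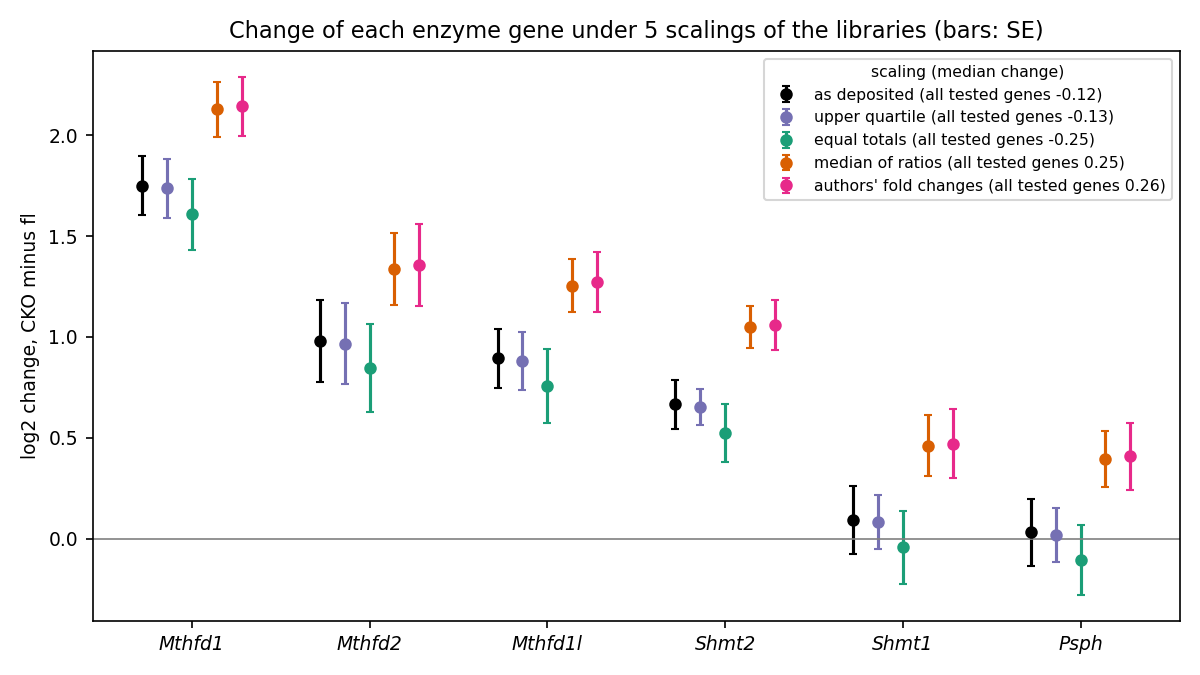
Log2 change (CKO minus fl) of each enzyme under each scaling between libraries, with bars for the standard error, and the median change of all tested genes under each scaling in the legend. Mthfd1, Mthfd2, Mthfd1l and Shmt2 stay above 0 under each scaling, while Shmt1 and Psph fall below 0 with equal totals and reach 0.46 and 0.40 with median-of-ratios factors.

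A ratio of enzymes within a library does not depend on that scaling, apart from the added pseudocount. The mitochondrial over cytosolic hydroxymethyltransferase ratio, Shmt2 over Shmt1, was 6.18, 6.02, 6.51, 5.89 and 7.24 in CKO7, CKO8, CKO9, CKO12 and CKO13, against 3.83, 4.23, 3.43, 4.42 and 5.78 in WT2 to WT6. The groups did not overlap, although WT6 was only just below the lowest CKO library. The mean ratio was 6.37 ± 0.541 in CKO libraries and 4.34 ± 0.890 in fl libraries (SD, n = 5 each). The mean log2 ratio was higher by 0.57 in CKO libraries (two-sided exact permutation test, p = 0.00794, adjusted over 4 ratios 0.0159). With 5 against 5 libraries 0.00794 is the smallest p this test can give.

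Mthfd1l over Mthfd1, the mitochondrial over the cytosolic formyl-folate synthetase, was lower in CKO libraries. The ratio was 0.158, 0.171, 0.192, 0.186 and 0.185 in CKO7, CKO8, CKO9, CKO12 and CKO13, against 0.310, 0.312, 0.309, 0.333 and 0.314 in WT2 to WT6. The groups were far apart and each was narrow. The log2 ratio fell by 0.86 (exact permutation p = 0.00794, adjusted 0.0159). The ratio of Mthfd2 to Mthfd1 was 0.132 to 0.217 in CKO libraries and 0.174 to 0.339 in fl libraries, where WT5 was lowest and overlapped the CKO range. Its log2 value fell by 0.77 (exact permutation p = 0.0159, adjusted 0.0212). The ratio of the mitochondrial pair, Mthfd2 over Mthfd1l, averaged 0.928 ± 0.148 in CKO libraries and 0.881 ± 0.216 in fl libraries (SD, n = 5 each), a log2 difference of 0.09 that did not pass the test (exact permutation p = 0.730). Leaving out CKO8 and WT3, the libraries highest in granulocyte genes, left the first 3 differences at 0.59, -0.85 and -0.73, with adjusted p of 0.0571, 0.0571 and 0.0762, in a design of 4 against 4 libraries whose smallest exact p is 0.0286, reached by Shmt2 over Shmt1 and by Mthfd1l over Mthfd1. Without CKO13 and WT6, also 4 against 4, the differences were 0.63, -0.87 and -0.85 (exact permutation test, adjusted p = 0.0381 for each).

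**Figure D3:**
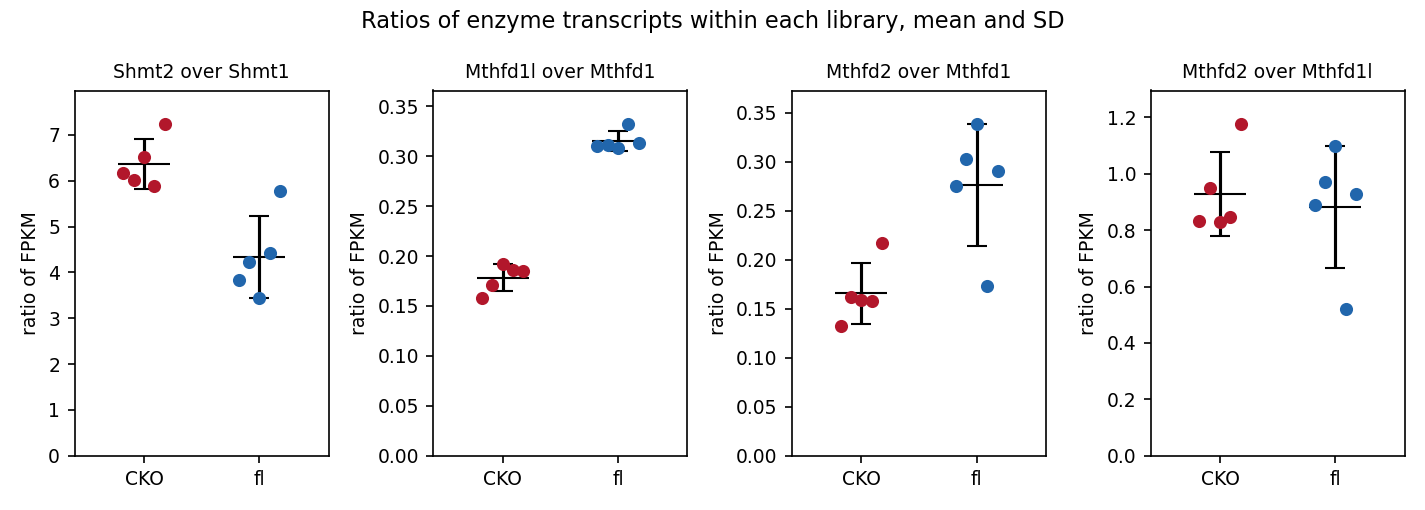
Ratio of FPKM for 4 enzyme pairs in each library on linear axes from 0, with points for libraries, bars for the mean and SD of 5 libraries, and CKO libraries left of fl libraries. Shmt2 over Shmt1 is higher and Mthfd1l over Mthfd1 lower in every CKO library than in any fl library, and Mthfd2 over Mthfd1 overlaps through WT5. For Mthfd2 over Mthfd1l the groups overlap, with CKO13 above all fl libraries and WT5 below all CKO libraries.

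By level in FPKM, which is per transcript length, the order of the enzymes in CKO libraries was Mthfd1, Shmt2, Mthfd1l, Mthfd2, Psph and Shmt1. Of these neighbours, Shmt2 and Mthfd1l were the pair whose ranges over libraries did not overlap. In fl libraries the order was Shmt2, Mthfd1, Psph, Shmt1, Mthfd1l and Mthfd2, with Shmt2 above Mthfd1 and Mthfd1 above Psph without overlap and the rest overlapping. Shmt2 over Mthfd1 was 0.815 to 1.10 in CKO libraries and 1.85 to 2.52 in fl libraries. Among tested genes the mean level of Mthfd1 stood at percentile 88.0 in CKO libraries and 58.3 in fl libraries, and that of Shmt2 at percentile 86.9 in CKO libraries and 80.7 in fl libraries.

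The enzymes also varied within groups. CKO12 was the lowest CKO library for 4 of the 6 (Mthfd1, Mthfd2, Mthfd1l and Shmt2). WT2 was the highest fl library for 5 of the 6, the exception being Psph, which was highest in WT4. Library by library, each gene centred on its own mean over 10 libraries, the root-mean-square difference in log2(FPKM + 1) was smallest for Shmt2 and Mthfd1l (0.17) and for Shmt1 and Psph (0.18), and largest for Mthfd1 and Psph (0.92). By the same measure, the tested genes most like Mthfd1 were Ddx39 (0.17), Dna2 (0.17) and Mcm5 (0.18). For Mthfd1l they were Eftud2 (0.07), Nsun2 (0.08) and Ipo5 (0.08), and for Mthfd2 Nup93 (0.13), Hells (0.16) and Nasp (0.17). For Shmt2 they were Suv39h1 (0.06), Cnot9 (0.06) and Got2 (0.06). For Shmt1 they were Rrp1b (0.09), Dnaja1 (0.10) and Meaf6 (0.11), and for Psph Vps29 (0.07), Cluap1 (0.09) and Impa1 (0.09). These are descriptions over 10 libraries from 2 groups, so a like response to genotype alone brings genes close.

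Among the other genes of the folate cycle, 9 of 21 listed passed the filter, of which 4 were called higher and 5 lower, with a median log2 change of -0.35. That count and median include Ggh and Mtfmt, which passed the filter through the fl libraries alone, and the median is the value of Mtfmt. Over all tested genes 21.1% were called higher and 31.6% lower. With a filter of 1 FPKM 18 of the listed genes were tested, 5 called higher and 8 lower. That filter gave 13.4% higher and 36.4% lower of 13448 tested genes. With median-of-ratios factors 4 of 9 were called higher and 2 lower, beside 44.2% higher and 11.8% lower over all tested genes. The thymidylate synthase Tyms, which uses the folate-bound carbon for DNA synthesis, rose most. It was at 101 ± 13.3 FPKM in CKO libraries and 45.8 ± 13.5 FPKM in fl libraries (SD, n = 5 each), a log2 change of 1.16 (limma, adjusted p = 0.000127). Fpgs, which adds the glutamate tail that keeps folate in cells, rose by 0.72, to 33.4 ± 4.35 FPKM in CKO libraries, against 19.8 ± 2.60 FPKM in fl libraries. Sfxn1, a mitochondrial serine carrier, rose by 0.65, to 45.5 ± 3.45 FPKM in CKO libraries, against 28.7 ± 4.11 FPKM in fl libraries. The folate carrier Slc19a1 rose by 0.42 (adjusted p = 0.0128), a call that was lost in 5 alternatives, among them equal totals (adjusted p = 0.134).

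The folate genes that fell included Mthfs, which returns 5-formyl folate to the pool, at 15.7 ± 2.03 FPKM in CKO libraries and 30.6 ± 3.34 FPKM in fl libraries (SD, n = 5 each). Its log2 change was -0.92 (limma, adjusted p = 3.6e-05). Mthfsl, a related gene on the same chromosome whose reads may be shared with Mthfs, changed by -0.72. Ggh, which trims the glutamate tail, changed by -0.55, Sfxn3, a relative of Sfxn1, by -0.64, and Mtfmt, which formylates the mitochondrial initiator tRNA, by -0.35. With median-of-ratios factors Ggh was at -0.19, Sfxn3 at -0.27 and Mtfmt at 0.0068, none of them called, whereas Mthfs and Mthfsl were called lower under each of the 24 alternatives. Genes below the filter were fitted with a filter of 1 FPKM. Aldh1l1, which removes formyl groups from folate, averaged 5.71 ± 1.75 and 12.1 ± 2.04 FPKM in CKO and fl libraries and changed by -0.997 (limma, adjusted p = 0.00118). Mthfd2l, the close relative of Mthfd2, averaged 7.76 ± 1.001 and 10.2 ± 3.24 FPKM in CKO and fl libraries, with a change of -0.32 that was not called (adjusted p = 0.155).

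Of 17 other serine and glycine genes 6 were tested, with 3 called higher, 1 lower and a median of 0.33. Over all tested genes 21.1% were called higher and 31.6% lower. With a filter of 1 FPKM 8 of the list were tested, 3 called higher and 3 lower. That filter gave 13.4% higher and 36.4% lower of 13448 tested genes. Srr and Sardh, tested only with that filter, changed by -0.72 and -1.07 (limma, adjusted p = 0.00263 and 0.000617). The enzymes that precede Psph both rose. Phgdh, the first step of serine synthesis, was at 367, 385, 430, 340 and 310 FPKM in CKO7, CKO8, CKO9, CKO12 and CKO13, against 251, 171, 232, 178 and 183 FPKM in WT2 to WT6. No library overlapped, and the log2 change was 0.86 (limma, adjusted p = 0.000178). Psat1 averaged 65.1 ± 9.85 FPKM in CKO libraries and 38.0 ± 6.60 FPKM in fl libraries (SD, n = 5 each), a change of 0.77 (limma, adjusted p = 0.000326). The ratio of Psph to Phgdh was 0.0366 to 0.0609 in CKO libraries and 0.0720 to 0.103 in fl libraries, and that of Psph to Psat1 0.233 to 0.312 and 0.393 to 0.604 in CKO and fl libraries. These ratios were chosen after the values were seen and were not tested. Dld, a subunit of the glycine cleavage system and of other dehydrogenases, rose by 0.42 (adjusted p = 0.00379, and 0.0877 with equal totals). The serine dehydratase-like gene Sdsl changed by -0.60 (adjusted p = 0.00689), a call lost with median-of-ratios factors (-0.22). Gcsh and Gcat were not called (0.21 and 0.25), but were called higher with median-of-ratios factors (0.59 and 0.60). Gldc, the decarboxylase of glycine cleavage, averaged 0.794 FPKM in CKO libraries and 0.504 FPKM in fl libraries.

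The pathways that consume the carbon units were measured as 2 further lists. For comparison, 21.1% of all tested genes were called higher and 31.6% lower. In the methionine cycle, 5 of 10 genes were tested, and limma called 3 higher and 0 lower (0 lower also at an unadjusted p under 0.05), with a median of 0.51. With a filter of 1 FPKM 7 were tested, 3 called higher and 1 lower (Ahcyl1, -0.66, limma, adjusted p = 0.00329). That filter gave 13.4% higher and 36.4% lower of 13448 tested genes. With equal totals 2 of the 5 were called higher and 1 lower, beside 1056 higher and 2672 lower of 6913 tested genes. Ahcy, which clears S-adenosylhomocysteine, rose most, at 73.1 ± 6.54 FPKM in CKO libraries and 39.4 ± 5.92 FPKM in fl libraries (SD, n = 5 each; log2 change 0.88, limma, adjusted p = 3.3e-05). Amd1 and Mtap, of polyamine synthesis and methionine salvage, rose by 0.60 and 0.51, the call on Mtap being lost in 5 alternatives. Mat2a, the S-adenosylmethionine synthetase of most tissues, was at 245 ± 21.9 and 247 ± 23.4 FPKM in CKO and fl libraries (log2 change -0.01, 95% interval -0.26 to 0.24). It was not called, but was called higher with median-of-ratios factors (0.37, limma, adjusted p = 0.0262) and the authors' scaling (0.38, adjusted p = 0.0123). In purine synthesis from ribose phosphate to inosine monophosphate all 8 genes were tested, and limma called 6 higher and 0 lower (0 lower also at an unadjusted p under 0.05), with a median of 0.50. Gart, which uses formyl-folate, was at 102 ± 10.4 and 57.0 ± 5.42 FPKM in CKO and fl libraries (log2 change 0.83, limma, adjusted p = 3.4e-05). Paics rose by 0.82, Pfas by 0.86 and Ppat by 0.58. Adsl (0.43) and Prps1 (0.40) were called with adjusted p of 0.0143 and 0.0179, but lost the call in 5 and 6 alternatives. With covariates for bone matrix and granulocyte scores, 3 of the 8 were called higher, beside 954 of all 6913 tested genes. With median-of-ratios factors all 8 were called higher, beside 44.2% of all tested genes. Pfas passed the filter through the CKO libraries. Atic, the other enzyme that uses formyl-folate, was at 24.8 ± 2.51 FPKM in CKO libraries and 20.8 ± 3.35 FPKM in fl libraries and was not called (0.25, adjusted p = 0.116), but was called higher with median-of-ratios factors (0.62), the authors' scaling (0.64) and library quality weights (0.35).

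**Figure D4:**
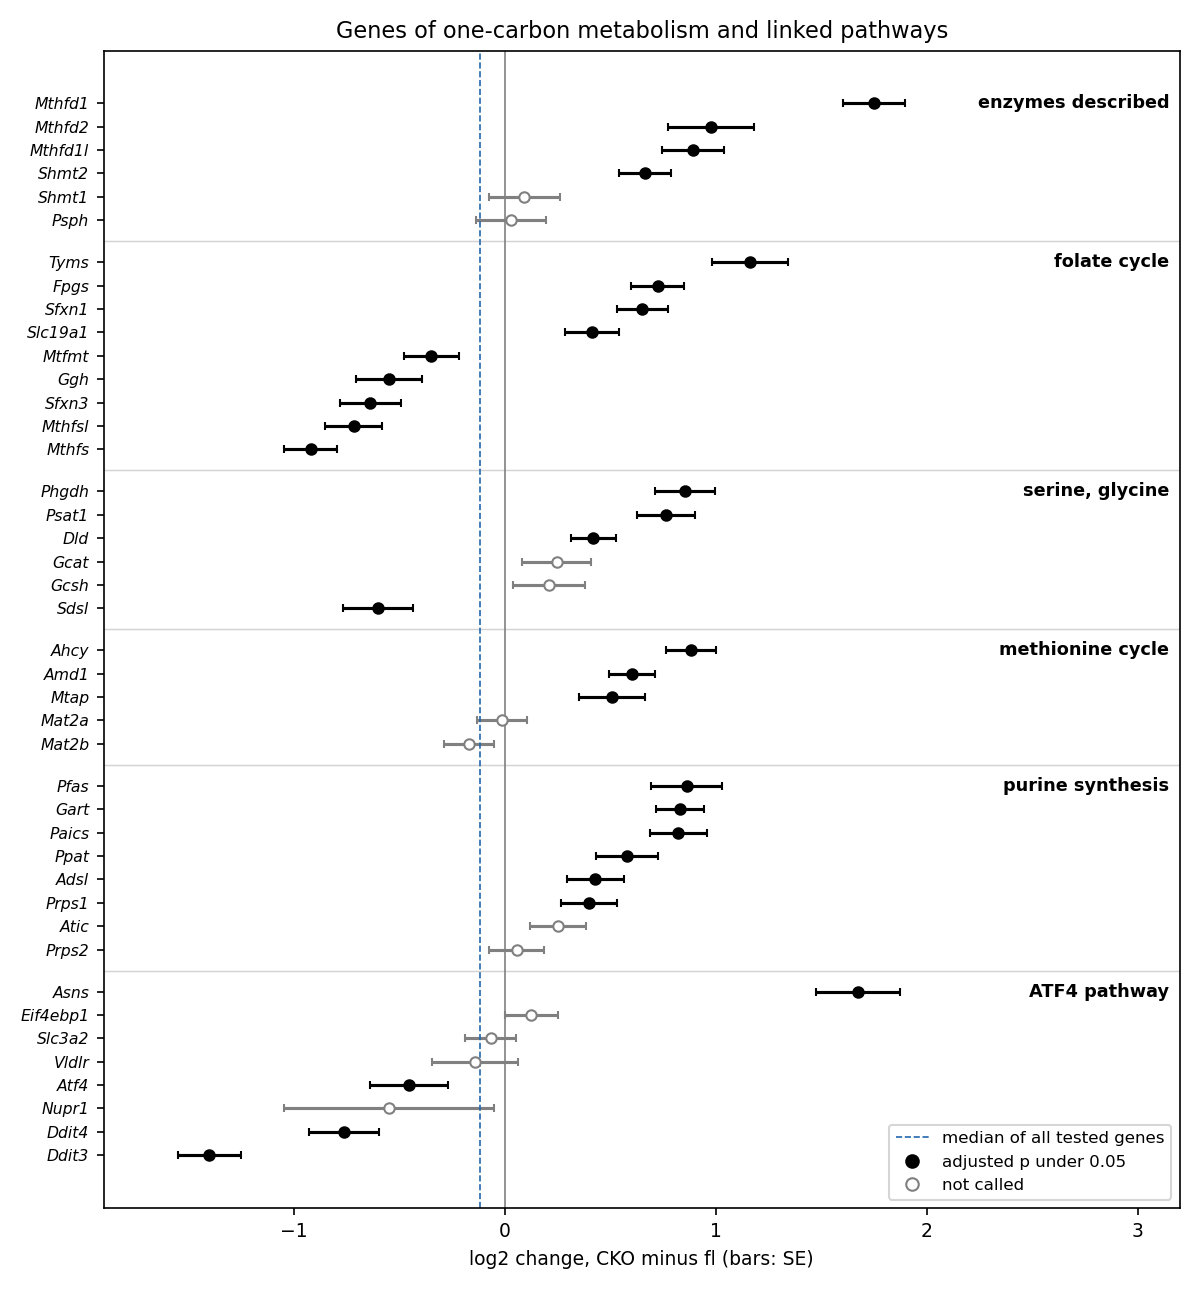
Log2 change (CKO minus fl) with its standard error for the 6 enzymes and the tested genes of each pathway list, with filled points for called genes and a dashed line at the median of all tested genes (-0.12). Mthfd1 has the largest change among the 6 enzymes and Mthfs the lowest of the folate genes, and with median-of-ratios factors the falls of Ggh, Sfxn3 and Sdsl are no longer called and Mtfmt lies at 0.0068.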

How the data were processed

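The values were a single deposited table with 10 library columns and the authors' own comparison. The library columns were taken as FPKM made by the authors: the header names no unit, and the inference rests on their sums (770789 to 966648 per library) and low-value steps. Those steps put the depth at about 8000000 to 13300000 fragments per library, an estimate from genes of 400 to 900 exonic bases. In the deposited table the mean normalised level is a signal, the fold changes and their standard errors are on the log2 scale, the test statistic is a score, and each p-value and adjusted p-value came from the authors' DESeq2 run, per the file headers. Per the submitters' processing notes, Bowtie 0.12.9, Cufflinks 2.1.1, HTSeq and mm10 were used, with no roles given. Columns matched the groups by name but not the numbers of the sample titles, so each was assigned to a group. No column of other samples was present (0).

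The design foresaw count tests where counts were given. The library columns held none, so limma 3.58.1 (R 4.3.3, trend and robust options) was fitted to log2(FPKM + 1) over the 6913 genes that reached 10 FPKM in 5 libraries or more. Exact permutation tests used scipy 1.17.1. The limma fit was tested on simulated data in which few genes changed and no scaling shift was set between libraries. That check does not cover the choice of scaling. Coordinates are from GENCODE mouse release M21. Named genes were the 6 enzymes, Dhx16, Myc, tested genes of the pathway lists and for each enzyme the 3 genes most like it. Listed genes below the filter were named after their values were seen. Some listed genes are not reported here. The pseudocount of 1 understates changes of genes with low values. The 6 enzymes and the lists were chosen with earlier results of these data known. Alternatives covered the filter, pseudocount, scaling, covariates, library weights and left-out libraries. Fits without CKO13 and WT6 or without CKO8 and WT3, and a scaling to the authors' fold changes, were added after seeing the data.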

Additional observations from a re-analysis of the deposited data

Results flagged for a closer look

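Of 96 groups of 5 libraries examined, 3 held a library far from the others (gap over range above 0.71), and chance gives about 1 in 20. Mthfsl was at 45.1 FPKM in WT4, with the other fl libraries at 28.9 to 32.8 FPKM. Nupr1, a stress-response gene of the ATF4 list, was at 75.2 FPKM in CKO13, with the other CKO libraries at 17.5 to 27.85 FPKM; CKO13 was also the CKO library highest in bone matrix genes, and their part in this value was not tested. The ratio of Mthfd1l to Mthfd1 was 0.333 in WT5, with the other fl libraries at 0.309 to 0.314.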

How the results depend on the processing

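Mthfd1 (1.61 to 2.14), Mthfd2 (0.76 to 1.36), Mthfd1l (0.71 to 1.27), Shmt2 (0.52 to 1.06) and Dhx16 (-0.94 to -0.45) kept direction and call under every alternative in which they were tested, each single left-out library included. With a filter of 20 FPKM, which Mthfd1 and Shmt2 alone passed, 2 enzymes were called higher. Shmt1 was -0.042 with equal totals, -0.054 with bone matrix and granulocyte covariates and -0.032 to 0.20 without single libraries, against 0.46 (median-of-ratios factors) and 0.47 (the authors' scaling). Psph was -0.11 with equal totals, -0.028 with covariates, -0.084 without CKO13 and WT6, -0.0025 without CKO8 and WT3 and -0.060 to 0.13 without single libraries, against 0.40 and 0.41 under those scalings. The cause of these shifts was not tested. Without CKO8 and WT3 the log2 ratios Shmt2 over Shmt1 (0.59, adjusted p = 0.0571), Mthfd1l over Mthfd1 (-0.85, adjusted p = 0.0571) and Mthfd2 over Mthfd1 (-0.73, adjusted p = 0.0762) missed the threshold of the exact permutation test, whose smallest unadjusted p with 4 against 4 libraries is 0.0286. Without CKO13 and WT6 the adjusted p was 0.0381 for each of the 3. Mthfd2 over Mthfd1l ranged from -0.071 to 0.17 without single libraries.

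Of all 6913 tested genes 1460 were called higher and 2182 lower. Those called higher were 3053 with median-of-ratios factors, 2991 with the authors' scaling and 954 with covariates. Those called lower were 4890 of 13448 and 1263 of 4606 tested genes with filters of 1 and 20 FPKM. They were 4523 of 42256 with no filter, and 816 and 819 of 6913 under the 2 scalings. Of the pathway genes 9 of 36 tested were called lower, against 16 of 55 and 5 of 28 with filters of 1 and 20 FPKM. With no filter 14 of 71 were called lower, and under the 2 scalings 3 and 4 of 36. Mat2a changed sign in 8 alternatives: it was 0.37 with median-of-ratios factors, 0.38 with the authors' scaling, 0.011 with library weights, 0.012 without CKO13 and WT6 and -0.056 to 0.032 without single libraries. Mtfmt was 0.0068 and 0.014 under the 2 scalings, and Gcsh -0.017 with covariates. No paired analysis was possible because the library columns carry no replicate number shared between the groups. Depth per library is an estimate, so no interval from counts is given.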

Other observations

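Genes of the ATF4 stress pathway, whose factor ATF4 is a known activator of serine and folate enzymes, were called in both directions. Of 15 listed genes 8 were tested, with 1 called higher, 3 lower and a median log2 change of -0.30. Over all tested genes 21.1% were called higher and 31.6% lower. With median-of-ratios factors 2 of the 8 were called higher and 1 lower, beside 44.2% higher and 11.8% lower over all tested genes. With the authors' scaling 3 were called higher and 2 lower, beside 43.3% higher and 11.8% lower. Asparagine synthetase, Asns, was at 72.8, 90.8, 67.0, 59.6 and 87.3 FPKM in CKO7, CKO8, CKO9, CKO12 and CKO13, against 25.4, 31.0, 18, 14.3 and 29.3 FPKM in WT2 to WT6 (log2 change 1.68, limma, adjusted p = 2.1e-05). Ddit3, a stress-induced transcription factor, was lower at 29.7 ± 7.13 FPKM in CKO libraries and 78.8 ± 9.65 FPKM in fl libraries (SD, n = 5 each), a change of -1.40, and neither gene overlapped between groups. Ddit4, which passed the filter through the fl libraries alone, changed by -0.76, but with median-of-ratios factors by -0.41 (adjusted p = 0.0781), no longer called. Trib3, a pseudokinase that restrains ATF4, averaged 3.05 FPKM in CKO libraries and 11.9 FPKM in fl libraries, and with a filter of 1 FPKM changed by -1.68. Sesn2, a stress-induced inhibitor of mTORC1 signalling, averaged 12.0 ± 2.03 FPKM in CKO libraries and 7.47 ± 1.38 FPKM in fl libraries (SD, n = 5 each), and rose by 0.62 with the same filter (limma, adjusted p = 0.00414). Atf4 itself was at 168 ± 52.7 FPKM in CKO libraries and 222 ± 20.6 FPKM in fl libraries (log2 change -0.45, limma, adjusted p = 0.0484), a call lost in 17 of 24 alternatives.

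Myc, a transcription factor known to activate Shmt2 and other genes of this pathway, averaged 166 ± 48.8 FPKM in CKO libraries and 234 ± 32.4 FPKM in fl libraries (SD, n = 5 each). Its log2 change was -0.53 (limma, adjusted p = 0.0311). The call was lost in 11 of 24 alternatives, among them without CKO13 (-0.35, adjusted p = 0.0718). Of all 5 pathway lists together, 36 of 71 genes were tested, with 17 called higher and 9 lower. Over all 6913 tested genes 21.1% were called higher and 31.6% lower.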
